A study of Caenorhabditis elegans with 2 samples.

Results

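The genes described here encode the proteins of the cytosolic ribosome in the nematode Caenorhabditis elegans, and the measurement is where an eGFP-tagged form of the transcription factor CEH-30 gave ChIP-seq peaks beside them. Members were the protein-coding genes of the Ensembl annotation of WBcel235 whose names are rpl- or rps- followed by a number. The rule found 78 genes, 47 of the large subunit (rpl-) and 31 of the small subunit (rps-), among 19973 protein-coding genes of the nuclear chromosomes. Chromatin came from whole late embryos of mixed sex of strain OP120, which has the genotype unc-119(ed3) III; wgIs120. The transgene wgIs120 carries tagged ceh-30, and the sequences that drive it are not stated in the labels. There were 2 biological replicates in 1 group, with no embryos of another strain or stage, so every comparison below is between genes within the peak lists. A control library was used by the authors and was not analysed here.

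Each ribosome has a large subunit that joins amino acids and a small subunit that reads the message, and each subunit is built from ribosomal RNA and a fixed set of proteins. The genes of these proteins are among the most highly expressed in growing animals, and they are usually regulated together. Many C. elegans messages are trans-spliced: a short leader RNA replaces the original start of the message, so the annotated 5′ end is then a splice acceptor and transcription begins farther upstream. CEH-30 is a BarH-type homeodomain protein whose known role is the survival of the CEM neurons of males. In chromatin of whole embryos, a factor bound in few cells and a factor weakly bound in many cells cannot be told apart.

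A gene is called bound here if the summit of a peak in the authors' optimal list, the reproducible list made by the irreproducible discovery rate (IDR) procedure, lay from 1000 bp upstream to 500 bp downstream of its 5′ end. The word says nothing about direct contact of CEH-30 with the DNA. The optimal list held 545 peaks, the strongest of the 30000 in the relaxed list of the pooled replicates, with signals from 38.9 to 792. Relaxed lists held 30000 peaks in replicate 1 and 17926 in replicate 2. A peak's signal is the authors' own peak height, and its scale is particular to each list. Read depth is unknown.

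The windows of 5 of the strongest peaks show what a ribosomal protein gene peak looks like in sequence. Each window below runs 50 bases to either side of a summit on the ce11 assembly, read 5′ to 3′ on the strand of the ribosomal protein gene from the RefSeq genome of the same build. They are the windows of rpl-20 (chrIV:4750029-4750129, minus strand), rpl-3 (chrIII:3867527-3867627, plus strand), rps-28 (chrIV:1659192-1659292, plus strand), rps-1 (chrIII:4475621-4475721, plus strand) and rpl-43 (chrII:14154492-14154592, plus strand). A further window lies between rpl-36 and rps-14 (chrIII:7179822-7179922, plus strand, that of rpl-36), a summit that serves a gene of each subunit. Capitals mark the word ACCGTA or its reverse complement TACGGT, which was singled out after all words of 6 bases had been compared.
rpl-20: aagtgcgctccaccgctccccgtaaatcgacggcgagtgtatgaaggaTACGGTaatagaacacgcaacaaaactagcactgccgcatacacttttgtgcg
rpl-3: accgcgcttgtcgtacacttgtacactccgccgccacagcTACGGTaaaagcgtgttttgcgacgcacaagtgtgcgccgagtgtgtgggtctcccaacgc
rps-28: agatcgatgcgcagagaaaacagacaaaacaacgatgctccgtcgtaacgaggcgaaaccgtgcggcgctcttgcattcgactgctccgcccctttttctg
rps-1: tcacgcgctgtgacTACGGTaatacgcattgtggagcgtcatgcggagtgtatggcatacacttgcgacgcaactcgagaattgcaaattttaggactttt
rpl-43: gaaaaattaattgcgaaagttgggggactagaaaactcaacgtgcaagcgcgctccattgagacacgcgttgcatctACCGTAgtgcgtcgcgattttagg
rpl-36 and rps-14: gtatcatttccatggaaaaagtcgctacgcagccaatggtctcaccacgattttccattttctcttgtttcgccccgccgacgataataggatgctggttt
The marked word stands in 4 of these 5 windows, close to the middle in rpl-20 and rpl-3, and is not in those of rps-28 and of rpl-36 with rps-14. All 6 summits are intergenic with respect to protein-coding genes. The rps-1 window overlaps exons of the noncoding RNA genes F56F3.10 and F56F3.11.

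Ribosomal protein genes had peaks more often than protein-coding genes in general, in every list. In the optimal list, 25 of the 78 genes were bound, 32.1% (95% exact interval 21.9% to 43.6%), against 2.40% of all protein-coding genes. The pooled relaxed list had a summit in the window of 70 members, 89.7% against 45.0% of all genes. Replicate 1 alone had one for 71 members, 91.03% against 45.3%, and replicate 2 alone for 69 members, 88.5% against 31.2%. Among the 3000 pooled peaks of highest signal the difference was wider, with 63 of 78 members, 80.8% (70.3% to 88.8%), against 10.3% of all genes. Since the whole relaxed lists reach a large share of all genes, a summit there says less about a member than a summit among the strongest 3000.

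Proteins of the mitochondrial ribosome are made from a separate set of nuclear genes, and these had fewer strong peaks. Only 4 of the 70 mrpl- and mrps- genes were bound, 5.71% (1.58% to 13.99%), namely mrps-7, mrpl-23, mrpl-17 and mrps-21. Their summits lay 182, 990, 146 and 975 bp upstream, and all but that of mrpl-23 also lay in the window of another gene. Of the mitochondrial genes 51 had a pooled summit and 23 had one among the strongest 3000, 32.9% (22.1% to 45.1%), so their share lay between those of the cytosolic genes and of all genes. The strongest pooled peak of a gene had a median signal of 33.7 in cytosolic ribosomal protein genes (70 genes, 13.9 to 99.3), 20.7 in mitochondrial ones (51 genes) and 15.0 in all protein-coding genes (8987 genes). The corresponding median ranks in the pooled list were 797, 3381 and 10689.

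**Figure D1:**
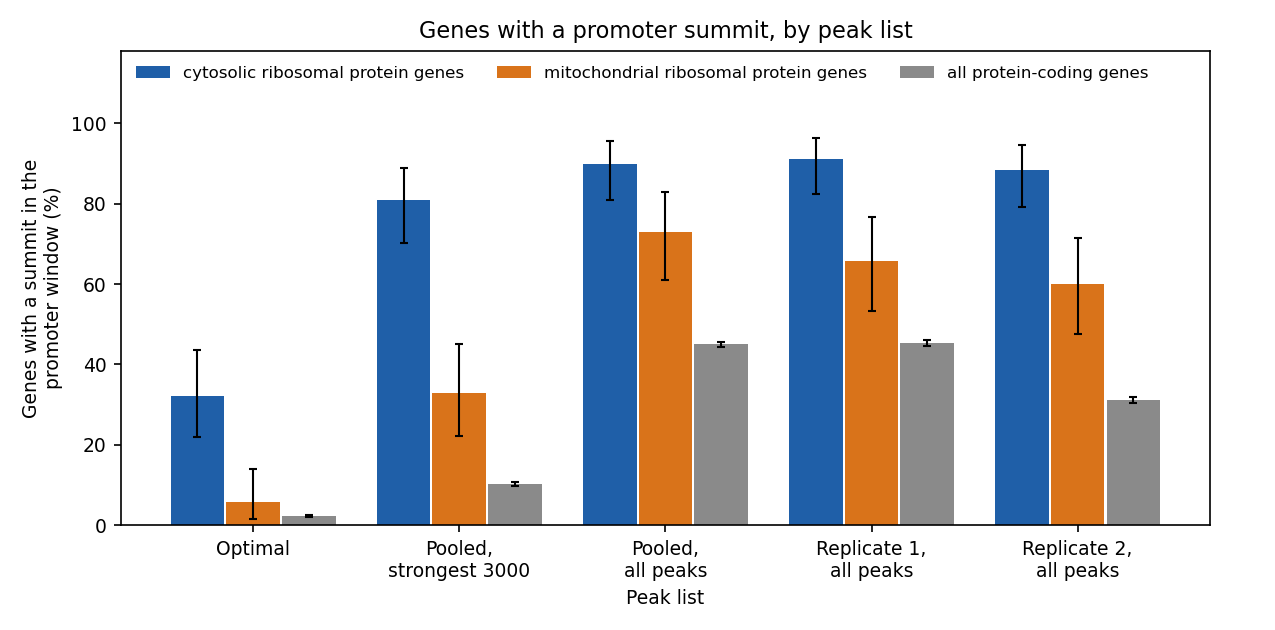
Share of genes with a peak summit in the promoter window, in percent, for cytosolic ribosomal protein genes (blue), mitochondrial ribosomal protein genes (orange) and all protein-coding genes (grey) in 5 peak lists; error bars are 95% exact binomial intervals over genes. The cytosolic genes had the highest share in each list, and among the strongest 3000 pooled peaks they reached 80.8% against 10.3% of all genes.

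No difference between the subunits passed the test. Of the large subunit genes, 14 of 47 were bound (29.8%, 17.3% to 44.9%), against 11 of 31 small subunit genes (35.5%, 19.2% to 54.6%). The difference, large minus small, was -5.70 percentage points with an interval of -26.5 to 14.5, and did not pass Fisher's exact test (two-sided p = 0.627, adjusted p = 0.627 over 2 tests). The interval does not exclude a difference of either sign, and the difference was -1.37 points without replicate 2 and -0.275 with the strongest 272 optimal peaks. Median pooled signals were 33.2 for 41 large subunit genes and 34.1 for 29 small subunit genes.

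**Figure D2:**
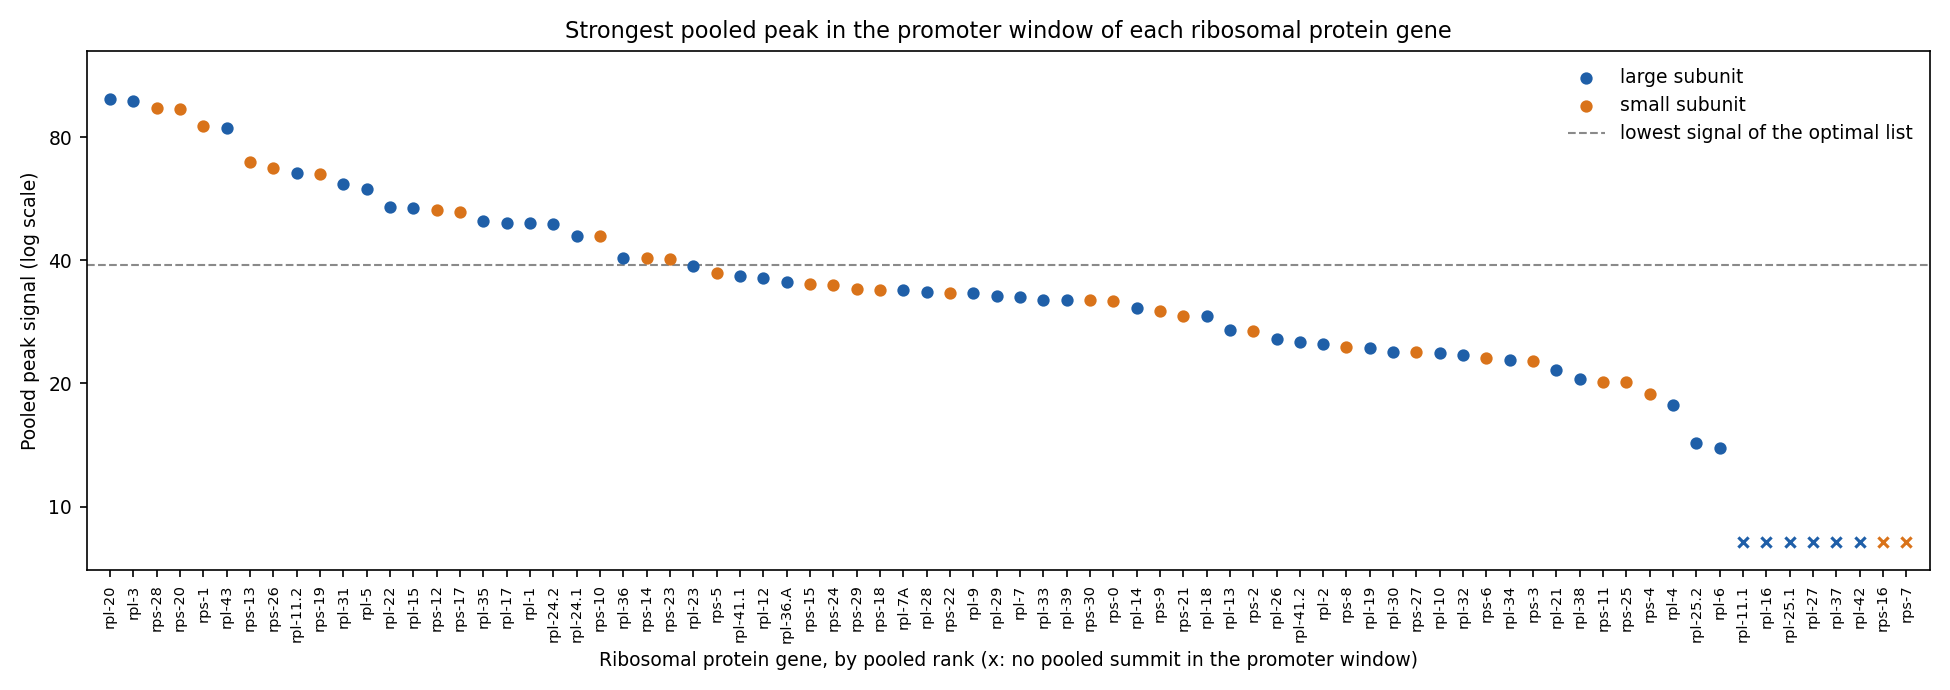
Signal of the strongest pooled peak (log scale) in the promoter window of each of the 78 ribosomal protein genes, ordered by pooled rank, large subunit in blue and small subunit in orange; the dashed line is the lowest signal of the optimal list and a cross marks a gene with no pooled summit in its window. Colours are mixed along the whole order, and 8 genes, 6 of them of the large subunit, have no pooled summit.

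The large subunit genes with the strongest peaks were rpl-20 and rpl-3. The gene rpl-20 had a pooled signal of 99.3 at chrIV:4749907-4750250 (rank 17), with 53.0 in replicate 1 and 44.2 in replicate 2. RPL-3 reaches towards the peptidyl transferase centre in yeast, and its gene had 98.0 at chrIII:3867405-3867748 (rank 19), with 36.04 in replicate 1 and 64.3 in replicate 2. Their order was opposite in the 2 replicates, where rpl-20 ranked 17 and 52 and rpl-3 ranked 58 and 14. The summit lay 301 bp upstream of rpl-20 and 277 bp upstream of rpl-3.

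Next came rpl-43 and rpl-11.2. The gene rpl-43, whose product is a zinc-binding protein of the large subunit in yeast, had a pooled signal of 84.2 at chrII:14154370-14154713 (rank 39), with 35.9 in replicate 1 and 45.03 in replicate 2. Its summit was the most distant among bound members, 752 bp upstream, and lay 169 bp from the 5′ end of Y48B6A.1. RPL-11 forms, with RPL-5 and the 5S RNA, a particle of the large subunit that in mammals also binds the regulator of p53. The gene rpl-11.2 had 65.4 at chrX:2242824-2243167 (rank 92), with 28.6 in replicate 1 and 37.8 in replicate 2. Its partner rpl-5 was bound as well, with a pooled signal of 59.8 (rank 136), 33.3 in replicate 1 and 26.1 in replicate 2.

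The gene rpl-31 had a pooled signal of 61.3, rpl-35 had 49.8 and rpl-17 had 49.2, and their products lie in yeast and human ribosomes at the exit of the tunnel through which the new protein leaves. Of the further genes for proteins there, rpl-19, rpl-26, rpl-25.2 and rpl-39 were not bound, with pooled signals of 24.4, 25.7, 14.3 and 31.96, and rpl-25.1 had no summit. This grouping was made after the values were seen, and its 3 bound genes of 8 stand beside 14 of 47 for the whole subunit. The remaining bound large subunit genes were rpl-22 (53.9), rpl-15 (53.5), rpl-1 (49.2), rpl-24.2 (49.03), rpl-24.1 (45.7) and rpl-36 (40.5). RPL-1 forms the stalk by which used tRNA leaves.

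Among small subunit genes, rps-28, rps-20 and rps-1 had the strongest peaks. RPS-28 sits where the message leaves the subunit in yeast, and its gene had a pooled signal of 94.3 at chrIV:1659070-1659413 (rank 23), with 36.1 in replicate 1 and 55.6 in replicate 2. RPS-20, a protein of the head of the subunit, had for its gene 93.5 at chrI:14469160-14469503 (rank 24), with 30.4 in replicate 1 and 59.5 in replicate 2. The gene rps-1 had 85.1 at chrIII:4475499-4475842 (rank 37), with 34.3 in replicate 1 and 49.98 in replicate 2. All of these had a better rank in replicate 2 than in replicate 1.

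The next small subunit genes were rps-13, rps-26 and rps-19. The gene rps-13 had a pooled signal of 69.4 at chrIII:6375062-6375405 (rank 77), with 25.4 in replicate 1 and 43.1 in replicate 2. RPS-26 contacts the message at the exit channel in yeast, and its gene had 67.2 at chrI:14759329-14759672 (rank 85), with 38.3 in replicate 1 and 24.3 in replicate 2. RPS-19 is needed to assemble the head of the subunit, and its human gene is mutated in Diamond-Blackfan anaemia. The gene rps-19 had 65.1 at chrI:9625926-9626269 (rank 95), with 22.96 in replicate 1 and 41.4 in replicate 2. Lower in the list stood rps-12 (52.96), rps-17 (52.5), rps-10 (45.7), rps-14 (40.5) and rps-23 (40.4), the last of which encodes a protein of the decoding centre.

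Strong and weak members kept their standing between replicates in part. Over the 66 members with a summit in both replicate lists, Spearman's rho of the ranks was 0.556, a description over genes that share both libraries, beside 0.414 over 4049 protein-coding genes. The strongest summit of a window need not be the same peak in both replicates. A further 5 members had a summit in replicate 1 only, 3 in replicate 2 only and 4 in neither. The 25 bound members come from 23 summits, and 18 of these ranked among the strongest 545 peaks of both replicates. The exceptions were rpl-31, which ranked 37 in replicate 1 and 793 in replicate 2, and rpl-35, rpl-24.2 and rps-23, which ranked 1539, 1119 and 3214 in replicate 1 and 141, 135 and 307 in replicate 2. The summit between rpl-36 and rps-14 reached neither, at 1059 and 788. Summit positions moved little: the shift from the optimal summit had a median of 16 bp in replicate 1 (at most 72 bp) and 12 bp in replicate 2 (at most 84 bp).

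**Figure D3:**
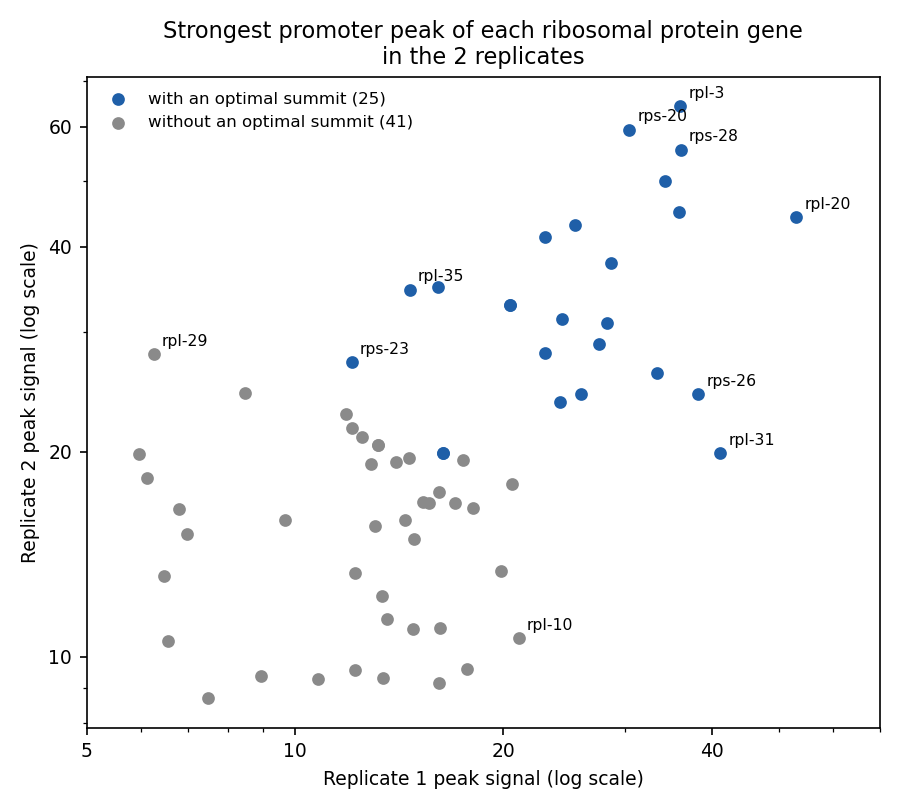
Signal of the strongest peak in the promoter window in replicate 1 (x axis) and replicate 2 (y axis), both on log scales, for the 66 ribosomal protein genes with a summit in both replicate lists; blue points are bound and grey points unbound genes. Bound genes fill the upper right because the optimal list was made from these libraries, and rpl-31, rpl-29 and rpl-10 are examples of genes high in 1 replicate only. For rpl-29 and rpl-10 the strongest summit lay at different places in the 2 replicates.

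Most unbound members had a weaker peak. Of the 53 unbound genes, 45 had a pooled summit, 84.9% against 43.6% of the 19493 unbound protein-coding genes. Among the strongest 3000 were 38 of the 53, 71.7% against 8.05% of unbound genes. Among the strongest 1090, a list 2 times as long as the optimal one, were 21, 39.6% against 2.52% of unbound genes, while 4.86% of all protein-coding genes had a summit in that list. Just inside the edge were rps-23 (rank 476, 40.4) and the pair rpl-36 and rps-14 (rank 473, 40.5). Just outside were rpl-23 (rank 553, 38.7), rps-5 (rank 612, 37.2), rpl-41.1 (rank 642, 36.7), rpl-12 (rank 663, 36.1) and rpl-36.A (rank 705, 35.4). Some unbound genes were high in a single replicate, with the strongest summit of the window at another place in the other replicate. The gene rpl-29 ranked 282 in replicate 2 (248 bp upstream) and 24498 in replicate 1 (-129 bp, downstream). The gene rpl-10 ranked 459 in replicate 1 (450 bp upstream) and 6955 in replicate 2 (168 bp upstream).

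Most peaks lay within a narrow range of distances upstream. All 25 bound members had the summit upstream of the 5′ end, at a median of 301 bp (164 to 752 bp), and 22 had it between 200 and 500 bp, a range chosen after the values were seen. Their quartiles were 247 and 379 bp. The 316 optimal summits that lie in promoter windows but in none of a member made 439 pairs of a summit and a gene, whose distances ranged from -469 to 990 bp with quartiles of 132 and 424.5 bp. Of these pairs 36.7% lay between 200 and 500 bp. The position was similar over all members with a pooled summit, bound or not: 56 of 70 lay between 200 and 500 bp, against 25.6% of 8987 protein-coding genes. These sets were not matched for peak strength: the median pooled rank was 797 in members and 10689 in the 8987 genes. The 45 unbound members with a pooled summit had a median of 305 bp, against 301 bp in bound ones (25 genes).

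**Figure D4:**
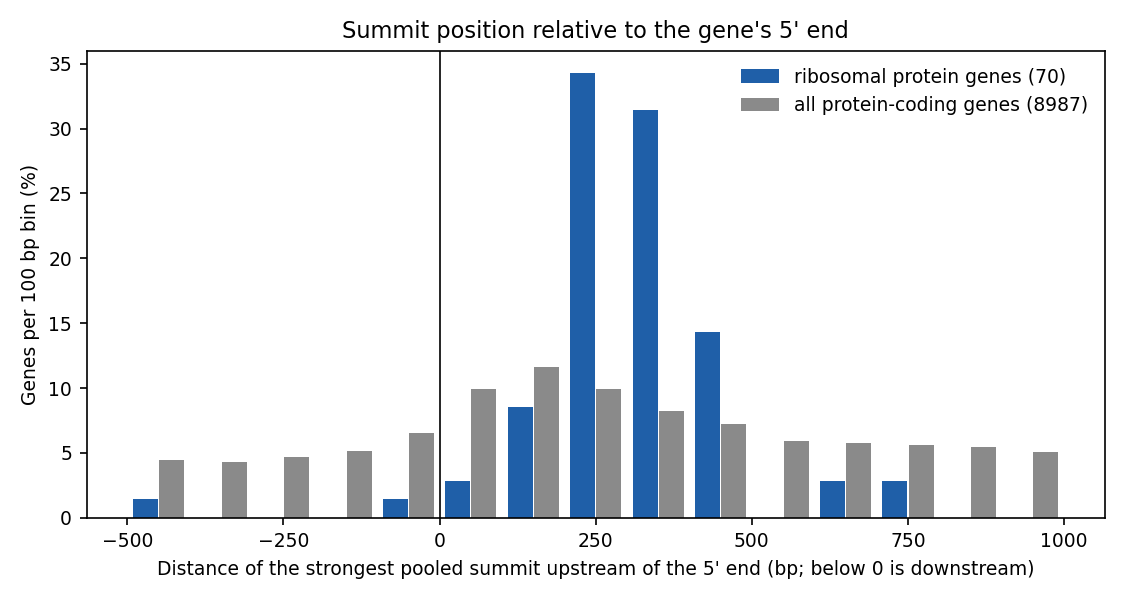
Distance of the strongest pooled summit upstream of the 5′ end, in bins of 100 bp, as a percentage of the 70 ribosomal protein genes (blue) and of 8987 protein-coding genes (grey) with a pooled summit; values below 0 are downstream. The ribosomal protein genes gather between 200 and 500 bp upstream, where 56 of the 70 lie, against 25.6% of the 8987 genes, whose peaks are weaker in the median.

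The annotated 5′ ends of most members have the form of splice acceptors. The last 20 bases before the 5′ end are shown for the genes of the strongest peaks, with the last 6 in capitals.
rpl-20: atcatatttttgttTTTCAG
rpl-3: gtaaaattaatattTTTCAG
rps-28: ataatttcaatttcTTTCAG
rps-1: ttatgtattcctatTTTCAG
rpl-43: tttcaggtaatccaGTCGAA
Of these, 4 end in TTTCAG, the consensus acceptor of C. elegans introns and trans-splice sites, and rpl-43 does not. Over all members, 66 of 78 (84.6%) had AG and 38 (48.7%) had TTTCAG immediately before the 5′ end, against 27.6% and 12.3% of all protein-coding genes. In bound members AG stood there in 24 of 25 and TTTCAG in 16, against 42 and 22 of 53 unbound members. How much of the distance between summit and 5′ end is transcribed and then removed was not tested.

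Ribosomal protein genes are often arranged back to back with another gene, so that 1 window serves more than 1 gene. A window was called shared if it held the 5′ end of another protein-coding gene, which was so for 50 members (64.1%), against 21.6% of all protein-coding genes. In 47 of the 50 the other gene lay on the opposite strand. Bound genes made up 20 of the 50 with a shared window (95% exact interval 26.4% to 54.8%), against 5 of the 28 with a single one (17.9%, 6.06% to 36.9%). The difference of 22.1 percentage points has an interval of 0.508 to 39.2 but did not pass Fisher's exact test (two-sided p = 0.0753, adjusted p = 0.151). It was 11.0 points without replicate 1 (Fisher's exact test, p = 0.449) and 12.1 with the strongest 272 optimal peaks (p = 0.289). Neither this contrast nor the next was computed over all protein-coding genes, so neither can be called particular to ribosomal protein genes. In the pooled relaxed list 49 of the 50 shared windows held a summit (89.4% to 99.9%), against 21 of the 28 single ones (55.1% to 89.3%). The 7 single windows without one include those of rpl-16, rpl-25.1, rpl-27 and rps-16, which follow another gene closely and are described below.

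Which gene of such a pair a summit belongs to cannot be read from the position alone. Of the 23 summits, 18 lay in the window of another gene that is no member. Over these 18, the distance to the 5′ end of the ribosomal protein gene had a median of 299 bp (164 to 752 bp), against 190 bp (28 to 992 bp) to the other gene, and the other gene was nearer in 11. Not every other gene among the 18 is a back-to-back partner. The one by rps-28, 868 bp from the summit, lies on the same strand. The 5′ ends of tmem-39 (992 bp) and ndab-2 (880 bp) lie outside the windows of the members concerned. At each of these summits the ribosomal protein gene was nearer, so the median of 190 bp includes genes that are no partners. The summit by rps-26 lay 28 bp from tmem-107, that by rpl-31 lay 46 bp from sac-2, and that by rps-13 lay 145 bp from nfx-1. When each summit was given only to the gene with the nearest 5′ end, 12 members remained, 15.4% (8.21% to 25.3%), against 1.68% of all genes. With that assignment, shared windows no longer led: 7 of 50 genes with a shared window were bound, against 5 of 28 with a single one. The rule takes a summit from a gene only where another 5′ end is nearer. It therefore lowers mainly the shared class by construction, and this change says nothing about the contrast. The bound members with a single window were rpl-3, rpl-11.2, rps-17, rpl-35 and rpl-24.2. The rpl-24.2 summit was the only one of the 23 inside a protein-coding gene, in an intron of C03D6.1.

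In 3 places the partner is itself a ribosomal protein gene, and each pairs a large with a small subunit gene. At rpl-24.1 and rps-10 (chrI:4584630-4584973, signal 45.7) the pooled summit lay 313 bp upstream of rpl-24.1 and 297 bp upstream of rps-10. At rpl-36 and rps-14 (chrIII:7179700-7180043, signal 40.5) the distances were 379 bp and 284 bp. The pair rpl-39 and rps-30 on chromosome V was not bound, with a pooled signal of 31.96 at rank 922, and its summit lay 251 bp and 248 bp upstream of them. Their 5′ ends are 610, 663 and 499 bp apart, and in each pair the summit stood near the middle.

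**Figure D5:**
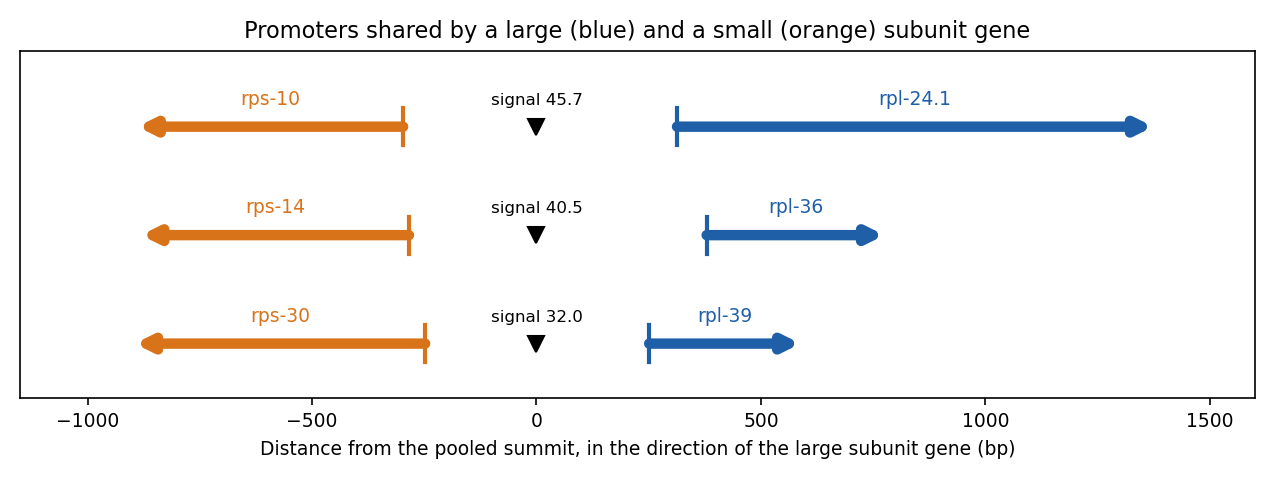
Maps of the 3 promoters that a large subunit gene (blue) shares with a small subunit gene (orange), drawn to scale by distance in bp from the pooled summit (black triangle), with arrows from the 5′ end to the 3′ end of each gene. The summit lies between 248 and 379 bp from the 5′ ends of all 6 genes.

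Bound and unbound members had similar medians of most other properties, which were not tested. The gap to the next gene upstream had a median of 609 bp in bound and 543 bp in unbound members, the G and C content of the upstream sequence 36.0% and 35.1%, and the gene length 756 bp and 753 bp. A small RNA gene, such as one for a snoRNA, lay within 6 of 25 bound genes and 8 of 53 unbound genes. A small RNA gene lay within 200 bp of 1 of the 23 summits, that by rps-26, 89 bp away. Within 50 bp of each of the 23 summits every word of 32 bases occurs at 1 place in the genome. By chromosome, 10 of 23 members on I were bound (43.5%, 23.2% to 65.5%), against 4.86% of all genes there. None of 8 on V was bound (at most 36.9%), against 1.32% of all genes there, although 6 of them had a pooled summit.

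The members with no pooled summit include those that follow another gene closely. There were 8: rpl-11.1, rpl-16, rpl-25.1, rpl-27, rpl-37, rpl-42, rps-7 and rps-16. Of these rpl-16, rpl-25.1, rpl-27 and rpl-37 had no summit in any list. In C. elegans, genes that lie close behind another on the same strand are often transcribed with it as an operon. Exactly 4 members have a gene on their strand that ends under 150 bp upstream, a limit set after the values were seen, and none of them had a pooled summit (0 of 4, at most 60.2%), against 70 of the 74 other members. Among all protein-coding genes in that position, 724 of 1556 had a pooled summit, 46.5%, against 44.9% of the rest. These 4 members all have a single window, so they are also among the 7 single windows without a pooled summit counted above.

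In each of these 4 places the upstream gene had a pooled summit in its own window, against 45.0% of all protein-coding genes. The gene lias-1, ending 105 bp before rpl-16, was bound, with a signal of 49.2 at rank 257, 244 bp upstream of lias-1. The gene glit-1, 97 bp before rpl-25.1, had a signal of 37.2 at rank 617. The gene fib-1, for the nucleolar RNA methyltransferase fibrillarin, ends 109 bp before rps-16 and had 21.5 at rank 2942, only 1 bp upstream of fib-1. C53H9.2, 119 bp before rpl-27, had 17.3 at rank 6642. The other 4 members without a pooled summit have no such neighbour, and rpl-37 overlaps the gene pitp-1. The annotation used holds no operons, so whether these pairs are transcribed together was not tested.

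In one pair of paralogs a single copy was bound. The gene rpl-11.2 was bound at rank 92, whereas rpl-11.1 had no pooled summit and ranked 22041 in replicate 1 and 7190 in replicate 2. For rpl-25 the second copy, rpl-25.2, had a weak pooled summit at rank 12500 and rpl-25.1 had none. The copies rpl-41.1 and rpl-41.2 ranked 642 and 1729 in the pooled list and 2797 and 11406 in replicate 1, but 661 and 421 in replicate 2. The strongest rpl-41.2 summit lay 898 bp upstream in replicate 1 and 240 bp upstream in replicate 2. Both rpl-24.1 and rpl-24.2 were bound, at ranks 337 and 263.

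Like other optimal summits in promoter windows, member summits were rich in G and C and seldom held homeodomain words. Within 50 bp of the summit the median G and C content was 48.5% at the 23 member summits and 48.5% at the 316 other optimal summits in promoter windows, against 33.7% in all protein-coding promoters 301 bp upstream. Homeodomain words, TAATTG or TAATTA or TAAACG on either strand, were at 2 of 23 member summits (8.70%, 1.07% to 28.04%), against 8.54% of the other summits and 17.1% of all promoters. Windows 301 bp upstream of the 53 unbound members held one in 4 (7.55%), with a median G and C content of 41.6%. The general core TAAT, which TAATTG and TAATTA contain, was at 8 of 23 (34.8%), against 31.3% and 67.8%. Words that were common at summits over the whole list, namely GACGCA or ACGCAG or GCGCCA or CGCGCA on either strand, of which the first overlaps the next by 5 bases, were at 8 of 23 (34.8%, 16.4% to 57.3%), against 49.4% and 7.28%. Taken singly, GACGCA and ACGCAG were each at 4 of 23, against 19.6% and 16.5% of the other optimal summits. GCGCCA was at 1 of 23 (at most 21.9%) and CGCGCA at 0 (at most 14.8%), against 20.9% and 20.3%. Since these words were found in the same peaks, their share at member summits is a description.

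A different word was frequent at member summits. Of all words of 6 bases, read on both strands, ACCGTA had the largest difference in share between member and other optimal summits: it was within 50 bp of 10 of 23 member summits (43.5%, 23.2% to 65.5%), against 25 of 316 others (7.91%, 5.19% to 11.5%). It stood in 6.06% of all protein-coding promoters in a window of that length. The word was picked for this difference, so these shares carry no test. At the pooled summits of unbound members that ranked beyond the optimal list and within the strongest 3000, which were not used to pick it, it was at 8 of 37 (21.6%, 9.83% to 38.2%), against 73 of 1143 pooled promoter summits of other genes in the same ranks (6.39%, 5.04% to 7.96%). The centre of the nearest copy lay at a median of 9.0 bp from the summit in bound members (10 summits) and 15.5 bp in unbound ones (8 summits). Bound genes with the word were rpl-20, rpl-3, rps-20, rps-1, rpl-43, rpl-11.2, rpl-22, rpl-15, rpl-17 and rps-23, and unbound ones were rps-29, rps-18, rpl-29, rpl-33, rpl-14, rpl-30, rpl-10 and rpl-34. The next words by the same measure were CCGTAG, which overlaps it, at 7 of 23 against 2.53%, and ACACTC, at 9 of 23 against 12.97%. A match is no evidence that a factor binds there.

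Other genes of the ribosome and its assembly were seldom bound, although most had a pooled summit. None of 6 further ribosomal genes was bound (at most 45.9%): rla-0, rla-1 and rla-2 of the stalk that recruits elongation factors, ubl-1 and ubq-2, which encode ubiquitin fused to a ribosomal protein, and rack-1, a scaffold on the small subunit. Of these, 5 of 6 had a pooled summit (83.3%, against 45.0% of all genes), with a median signal of 22.8. Among the strongest 3000 pooled peaks were those of 3 of the 6. With so few genes, the interval up to 45.9% includes the 32.1% bound among the rpl- and rps- genes, so a difference from them is not shown. Among 39 ribosome biogenesis genes, 3 were bound (7.69%, 1.62% to 20.9%), against 2.40% of all genes. They were nol-58 (signal 44.9), a core protein of box C/D snoRNPs, wdr-46 (41.6) and lpd-6 (39.99). Their summits lay 982, 182 and 116 bp upstream, and that of lpd-6 also lay in the window of dscc-1. In this list 34 of 39 genes had a pooled summit (87.2%, against 45.0% of all genes and 89.7% of the ribosomal protein genes), with a median signal of 18.5 against 33.7 in ribosomal protein genes. Among the strongest 3000 pooled peaks were those of 14 of the 39 (35.9%), against 10.3% of all genes and 80.8% of the ribosomal protein genes.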

How the data were processed

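ChIP-seq of eGFP-tagged CEH-30 was deposited as peak lists for 2 replicates of 1 group. Per the deposited descriptions, relaxed lists were called by the authors for either replicate and for the pool of both, with a control alignment, and derived the optimal list by the IDR procedure. The deposited signal of a peak comes from the authors' caller and is not comparable between lists. Caller, aligner and IDR threshold are not stated in the labels or headers. The lists hold no reads, so depth is unknown and intervals cover the counting of genes or peaks only.

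Summits of the ce11 lists, with start and offset taken from the other deposited columns, were placed in windows from 1000 bp upstream to 500 bp downstream of the 5′ ends of Ensembl release 115 (WBcel235), with sequence from the RefSeq genome of that build. A gene's value in a list is that of its strongest summit. The ce10 lists were not used. Shares have exact Clopper-Pearson 95% intervals. The 2 comparisons of shares used Fisher's exact test with Benjamini-Hochberg adjustment at 0.05, and intervals of differences are Newcombe's. Genes are not independent replicates of a condition, and a summit can serve several genes. Python 3.11.15 and scipy 1.17.1 were used, and the window, overlap and nearest-gene rules were checked on simulated summits.

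Members, gene lists and tests were chosen with earlier results of these data known. Every bound member is named, the 10 of highest pooled signal with all values, along with the 5 members just outside the optimal list, those with no summit, and paralogs. Alternatives were other windows, peak overlap, nearest 5′ end, the strongest 272 optimal peaks, any transcript's 5′ end, opposite-strand partners only, single replicates, and 25 or 100 bp around summits. Sequences are shown for summits off chromosome I. Of the biogenesis names, 39 of 49 matched the annotation.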

Additional observations from a re-analysis of the deposited data

How the results depend on the processing

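The count of bound members was 25. It fell to 12 when each summit counted only for the nearest 5′ end, all 12 of them among the 25, against 1.68% of all genes. Other windows, peak overlap, other 5′ ends and the stronger optimal peaks gave 20 to 26, and the strongest 545 peaks of a single replicate gave 22 without replicate 2 and 25 without replicate 1, of which 20 and 22 were among the 25. The shared minus single difference turned to -3.86 percentage points with the nearest 5′ end (Fisher's exact test, p = 0.747), a rule that lowers mainly the shared class by construction. It ran from 11.0 without replicate 1 to 21.7 without replicate 2. The share of member summits with a homeodomain word was 0% within 25 bp (at most 14.8%), where the smaller window holds fewer words by construction. The remaining results kept their direction and their side of the threshold. With pooled peaks and a window reaching 2000 bp upstream, 76 of 78 members had a summit, all but rpl-25.1 and rpl-42, against 58.5% of all genes. No paired analysis was possible because both replicates belong to 1 group. With 2 replicates and unknown depth, the lists cannot tell a gene without a peak from a gene whose peak fell below the lists' lower ends.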
